A study of Mus musculus with 8 samples.

Results

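The RNA of 9 genes whose proteins carry or restrain the signal of the B-cell receptor was followed in mouse leukaemic cells labelled as pro-B. The genes were Syk, Btk, Blnk, Bank1, Plcg2, Cd22, Cd72, Ptpn6 and Dok3. They were chosen by gene symbol as adaptors, co-receptors and kinases of the pathway, and all 9 matched a row among the 38918 gene rows of the deposited table. The Klf2 group is BMiFLT3 (15-3) cells, a cell line of pro-B cells from a murine BCP-ALL (B-cell precursor acute lymphoblastic leukaemia), infected with a retrovirus that overexpresses Klf2, a Krüppel-like transcription factor. The BFP group is the same line infected with a retrovirus for BFP, a blue fluorescent protein, and BFP also stands in the column names of the Klf2 group. The sources used here do not give the strain or the time after infection. The study set out to find genes regulated by Klf2, and both groups were measured by sequencing poly(A) RNA.

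When antigen or a surrogate light chain complex clusters the receptor, Src-family kinases phosphorylate its Cd79a and Cd79b tails and the kinase Syk binds there. Syk phosphorylates the adaptor Blnk, which brings Btk and Plcg2 together, and Plcg2 then cleaves a membrane lipid into the messengers that release calcium and activate protein kinase C. Cd22 and Cd72 carry inhibitory tyrosine motifs that recruit the phosphatase SHP-1, encoded by Ptpn6, and the adaptor Dok3 restrains the same pathway from the inside. In pro-B cells the mature receptor is not yet made, and the same proteins serve the pre-B-cell receptor at the next stage.

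Each group holds 1 library, sequenced on 4 lanes and deposited as 4 samples. The libraries held 30835450 exon reads in Klf2 and 30133978 in BFP. No difference between them has a replicate behind it, so p-values are not given, and lanes measure sequencing noise only. Values are CPM, exon reads with TMM scaling between the libraries, and each ratio is Klf2 over BFP with an exact 95% interval that covers counting error only. A gene passed the rule when it had at least 1 CPM in either library, a ratio of at least 2 in either direction and an interval that excluded 1. Klf2 itself was at 113 CPM in the Klf2 library and 10.1 CPM in the BFP library, a ratio of 11.1 (9.93 to 12.6).

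None of the 9 members passed this rule, where 2.45% of the 10850 genes tested passed as higher, 5.67% as lower and 8.12% in all. Within those limits the members did not move as a block. Plcg2 was furthest above BFP at a ratio of 1.75, and Dok3 furthest below at 0.599. Syk and Btk, the kinases, stood at 1.01 and 0.990. At a limit of 1.5-fold in place of 2-fold, 1 member passed as higher (Plcg2) and 2 as lower (Dok3 and Bank1), beside 10.2% and 13.9% of the genes tested. The median log2 ratio of the members was 0.01, against -0.01 for all genes tested. In bulk RNA, fewer cells that carry a transcript and less of it per cell cannot be told apart.

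The promoters of Plcg2 and Dok3 are shown because these members lie at the ends of this range, and that of Blnk because it alone among the members held the third motif described here. They are RefSeq windows on GRCm38.p6 from 250 bases before to 50 bases after an annotated start, read 5′ to 3′ on the gene's strand. Plcg2 lies at chr8:117498025-117498324 on the plus strand, Dok3 at chr13:55528489-55528788 on the minus strand and Blnk at chr19:40994172-40994471 on the minus strand. Capitals mark 3 motifs, each searched on both strands with overlapping matches counted: CACCC or GGGTG, the core of the CACCC box that Krüppel-like factors are known to bind; GGAAGT or ACTTCC, a core of ETS sites; and ATTTGCAT or ATGCAAAT, the octamer of B-cell promoters.
Plcg2: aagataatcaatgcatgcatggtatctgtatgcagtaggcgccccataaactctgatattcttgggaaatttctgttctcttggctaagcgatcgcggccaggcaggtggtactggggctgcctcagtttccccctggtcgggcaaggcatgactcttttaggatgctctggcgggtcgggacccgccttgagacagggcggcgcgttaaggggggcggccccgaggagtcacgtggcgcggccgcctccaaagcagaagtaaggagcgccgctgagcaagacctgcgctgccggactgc
Dok3: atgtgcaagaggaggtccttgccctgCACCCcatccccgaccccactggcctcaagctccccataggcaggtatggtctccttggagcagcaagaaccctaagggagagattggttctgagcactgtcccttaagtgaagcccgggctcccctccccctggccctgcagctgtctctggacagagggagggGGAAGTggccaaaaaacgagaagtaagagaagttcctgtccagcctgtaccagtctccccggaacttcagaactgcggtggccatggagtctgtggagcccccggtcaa
Blnk: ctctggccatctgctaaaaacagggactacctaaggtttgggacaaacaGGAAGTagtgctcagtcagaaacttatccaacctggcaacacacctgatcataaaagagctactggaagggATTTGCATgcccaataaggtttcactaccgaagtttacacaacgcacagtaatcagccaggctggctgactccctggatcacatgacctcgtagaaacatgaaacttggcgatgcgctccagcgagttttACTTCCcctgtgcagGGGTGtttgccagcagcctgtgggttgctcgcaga
Plcg2 had no match to any of the 3 motifs in this window. Dok3 had 1 CACCC and 1 GGAAGT match, and Blnk had 1 CACCC, 2 GGAAGT and 1 octamer match. Among all 9 members, which have 10 promoters because Syk has 2 starts, 5 held CACCC (Syk, Btk, Blnk, Cd22 and Dok3), and 57.5% of 32851 mouse promoters of the same length did so. The ETS core was found in 6 members (Syk, only in its second window, Blnk, Bank1, Cd72, Ptpn6 and Dok3) and in 23.8% of all promoters. Members are counted here per gene, with a match in either Syk window, while the percentages are per promoter window. Blnk held the octamer, as did 1.74% of all promoters. The Plcg2 window held 21 CpG sites, against a median of 7 over all promoters, while the first Syk window held 31 and Btk and Bank1 held 3 each. Members with CACCC lay on both sides of BFP. No measurement of binding at these windows was used here, and a match describes letters only.

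With TMM scaling, the kinases among the members, Syk and Btk, did not differ between the libraries beyond counting error. Syk, which docks on the phosphorylated receptor tails, had 1610, 1571, 1593 and 1649 exon reads in the 4 Klf2 lanes, against 1602, 1738, 1657 and 1625 in the 4 BFP lanes. The lanes of the groups overlapped, and the summed level was 215 CPM in Klf2 and 213 CPM in BFP, a ratio of 1.01 (0.975 to 1.04). Btk, the Tec-family kinase that phosphorylates Plcg2, had 1704, 1683, 1712 and 1697 reads in Klf2 lanes, against 1770, 1771, 1826 and 1778 in BFP lanes. With TMM scaling the Btk lanes overlapped as well, at 227 CPM in Klf2 and 229.8 CPM in BFP, a ratio of 0.990 (0.957 to 1.02). In the deposited RPKM, which has no TMM scaling, the Btk lanes did not overlap, at 59.0 to 60.1 in Klf2 and 63.1 to 65.4 in BFP. The 2 kinases also kept their proportion without any scaling: the Klf2 library held 0.945 Syk reads for each Btk read and the BFP library 0.927. Without TMM scaling both intervals lay below 1, at 0.948 (0.916 to 0.981) for Syk and 0.930 (0.899 to 0.961) for Btk, and with scaling on genes of like level the ratios were 0.899 for Syk and 0.881 for Btk, so their closeness to 1 rests on the scaling. Syk lies on chromosome 13, 52583173 to 52648792 (mm10), and Btk on chromosome X, 134542336 to 134583570.

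**Figure D1:**
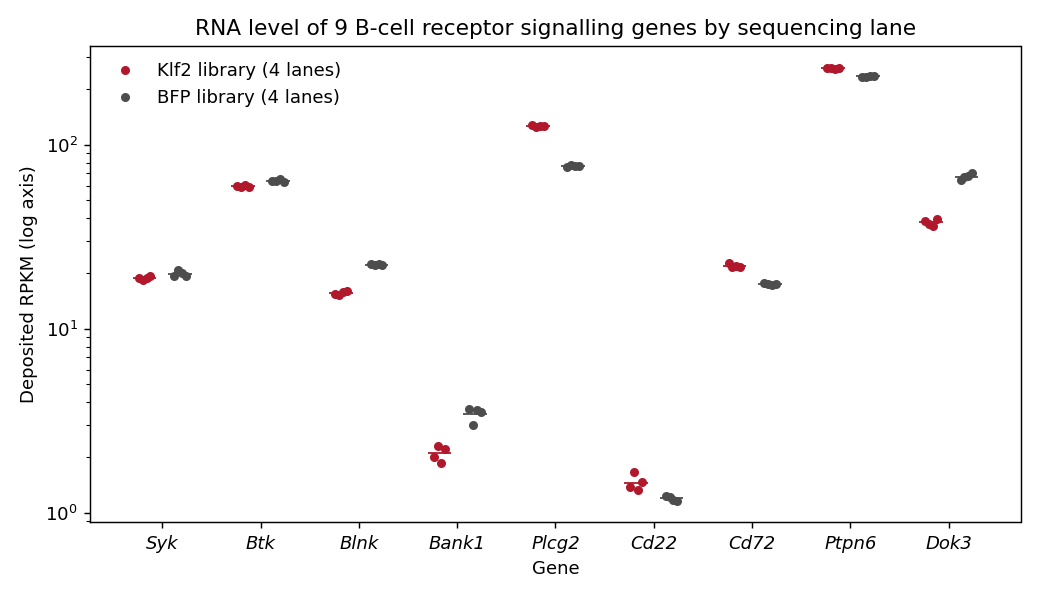
Deposited RPKM (log axis), which has no TMM scaling, of the 9 members in each of the 4 lanes of the Klf2 and BFP libraries, 1 point per lane. On this scale the Syk lanes of the libraries meet at 19.3 RPKM, and no other member has lanes that overlap. With TMM-scaled CPM, which is not drawn, the lanes of both Syk and Btk overlap, and those of the other 7 members do not.

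The adaptors that sit between kinase and lipase were at lower levels in the Klf2 library. Blnk, also called SLP-65, is the scaffold on which Btk meets Plcg2. It had 843, 826, 857 and 875 exon reads in the Klf2 lanes, against 1186, 1187, 1187 and 1183 in the BFP lanes. Every Klf2 lane was below every BFP lane, and the level was 114 CPM in Klf2 and 153 CPM in BFP, a ratio of 0.746 (0.714 to 0.780). Bank1, a scaffold that links Lyn to the calcium response, was scarce in both libraries. It had 59, 68, 55 and 66 reads in the Klf2 lanes, against 105, 86, 104 and 102 in the BFP lanes. These lanes did not overlap either, and the ratio was 0.650 (0.552 to 0.764), from 8.30 CPM in Klf2 and 12.8 CPM in BFP. The wider interval of Bank1 comes with 248 reads in Klf2 and 397 in BFP, and the ratio ran from 0.600 to 0.685 as each lane was left out in turn. Blnk lies on chromosome 19, 40928927 to 40994535, and Bank1 on chromosome 3, 136053363 to 136326046 (mm10).

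Plcg2, the phospholipase C isoform of B cells that acts on the Blnk scaffold, was the member furthest above BFP. It had 5007, 4875, 4914 and 4921 exon reads in the Klf2 lanes, against 2886, 2951, 2926 and 2946 in the BFP lanes. The lowest Klf2 lane was far above the highest BFP lane. The level was 659.8 CPM in Klf2 and 377 CPM in BFP. The ratio was 1.75 (1.71 to 1.79), above 95.2% of the genes tested and short of the 2-fold limit. With total-read scaling the Plcg2 ratio was 1.65 (1.61 to 1.68), and with scaling on genes of like level it was 1.56. The authors' deposited median coverage across the gene was 53 to 54 in the Klf2 lanes and 31 to 32 in the BFP lanes. Plcg2 and the adaptors thus stood on opposite sides of BFP. Without any scaling, Plcg2 had 5.80 reads for each Blnk read in Klf2 and 2.47 in BFP, a pair chosen after the values were seen, which shows their change relative to each other and not the side of BFP each is on. Plcg2 lies on chromosome 8, 117498291 to 117635140 (mm10), and its exon reads were 100% uniquely placed.

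The inhibitory co-receptors were both above BFP by less than 1.5-fold. Cd72, a C-type lectin-like receptor that recruits SHP-1, had 704, 676, 676 and 676 exon reads in the Klf2 lanes, against 537, 531, 527 and 538 in the BFP lanes. Its lanes did not overlap, and the level was 91.4 CPM in Klf2 and 68.6 CPM in BFP, a ratio of 1.33 (1.26 to 1.41). Cd72 lies on chromosome 4, 43446462 to 43454628 (mm10), and overlaps Tesk1 on the opposite strand, which had 604 reads in Klf2 and 830 in BFP. The sources used here do not say whether counting used strand, so reads of the pair cannot be told apart where they overlap. On uniquely placed reads, 82.9% of Cd72 exon reads in Klf2 and 75.2% in BFP, the Cd72 ratio was 1.47 (1.38 to 1.57). Cd22, a sialic acid-binding lectin of B cells, was the scarcest member, with 54, 65, 52 and 58 reads in the Klf2 lanes and 47, 47, 45 and 45 in the BFP lanes. The lanes did not overlap, at 7.66 CPM in Klf2 and 5.92 CPM in BFP, but the ratio of 1.30 (1.06 to 1.58) had a lower bound near 1. Without TMM scaling that interval was 0.997 to 1.48 and included 1. Cd22 lies on chromosome 7, 30865402 to 30880342 (mm10).

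The 2 inhibitors inside the cell stood on opposite sides of BFP. Ptpn6 encodes SHP-1, the phosphatase recruited by Cd22 and Cd72, and it was the most abundant member. It had 6686, 6656, 6554 and 6687 exon reads in the Klf2 lanes, against 5768, 5830, 5898 and 5912 in the BFP lanes. All Klf2 lanes were above all BFP lanes by a small margin, at 889.6 CPM in Klf2 and 753 CPM in BFP, a ratio of 1.18 (1.16 to 1.2). Relative to genes of like level, whose median ratio was itself above 1, the Ptpn6 ratio was 1.05. Dok3, the adaptor that restrains the calcium response in B cells, was the member furthest below BFP. It had 544, 518, 509 and 553 reads in the Klf2 lanes, against 877, 915, 931 and 966 in the BFP lanes. The highest Klf2 lane was well below the lowest BFP lane, and the level was 71.1 CPM in Klf2 and 119 CPM in BFP, a ratio of 0.599 (0.568 to 0.632), with 9.76% of the genes tested lower still. Ptpn6 lies on chromosome 6, 124720707 to 124738714, and Dok3 on chromosome 13, 55523235 to 55528538 (mm10).

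Over the 9 members, lanes did not overlap for 4 that were higher in Klf2 and 3 that were lower, beside 32.3% and 30.7% of all genes tested, 62.9% in all. The interval lay above 1 for Plcg2, Cd22, Cd72 and Ptpn6 and below 1 for Blnk, Bank1 and Dok3. Such intervals were common at this depth, since 37.1% of the genes tested had one above 1 and 37.3% one below. The members at the ends, Plcg2 and Dok3, differed most in proportion: the Klf2 library held 9.28 Plcg2 reads for each Dok3 read (8.90 to 9.65 over the lanes) and the BFP library 3.17 (3.05 to 3.29).

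**Figure D2:**
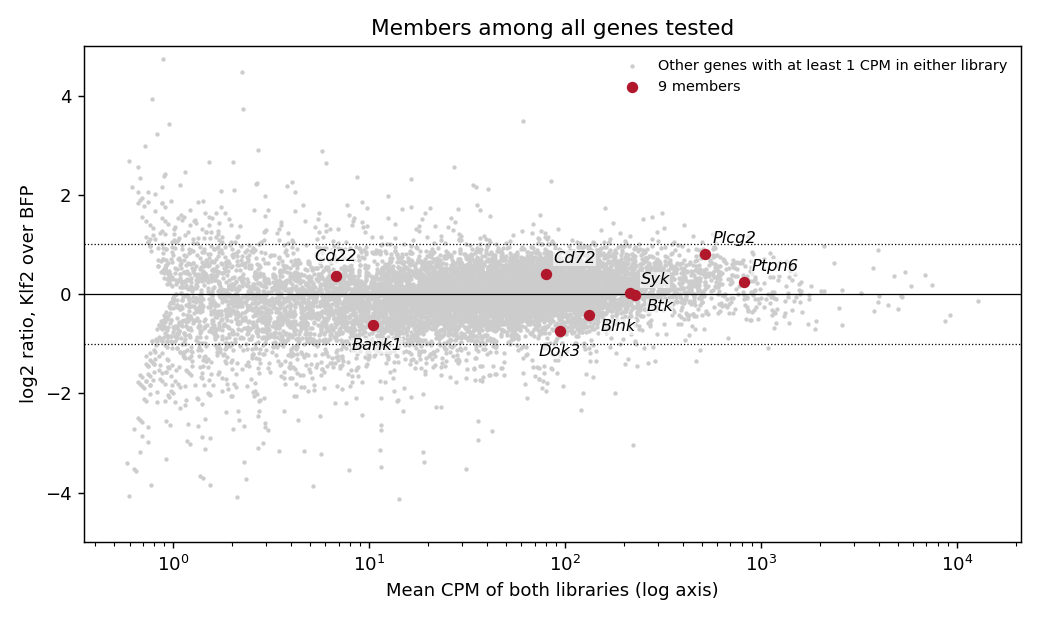
Log2 ratio of Klf2 over BFP against mean CPM of both libraries (log axis) for the 10850 genes tested (grey) and the 9 members (red), with dotted lines at the 2-fold limit. Plcg2 at 0.81 and Dok3 at -0.74 lie inside the lines, and Syk at 0.01 and Btk at -0.01 lie on the axis.

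On a scale per length, the deposited RPKM, the order of the members' levels changed in its middle. In the Klf2 library the order from the highest was Ptpn6 at 261 RPKM, Plcg2 at 126, Btk at 59.4, Dok3 at 37.8, Cd72 at 22, Syk at 18.9, Blnk at 15.6, Bank1 at 2.10 and Cd22 at 1.46. No lanes of neighbours in that order overlapped. In the BFP library the order was Ptpn6 at 235 RPKM, Plcg2 at 76.7, Dok3 at 67.1, Btk at 63.8, Blnk at 22.3, Syk at 19.9, Cd72 at 17.5, Bank1 at 3.44 and Cd22 at 1.2. There the lanes of Dok3, at 64.0 to 69.8 RPKM, and Btk, at 63.1 to 65.4, overlapped, and no other neighbours did. Dok3 thus stood beside Btk in BFP and below it in Klf2, and Cd72 stood above Syk and Blnk in Klf2 and below both in BFP. Such an order between genes rests on the annotated exon length. Over the lanes of both libraries the deposited median coverage was only 0 to 1 for Blnk and 3 to 4 for Syk. The authors' deposited table gives a signed fold of mean RPKM of 1.648 for Plcg2 and -1.775 for Dok3, where a negative value means lower in Klf2. The 9 members together took 0.221% of exon reads in Klf2 and 0.199% in BFP, and Ptpn6 with Plcg2 made up 67.8% of the members' reads in Klf2 and 58.5% in BFP.

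Reads that cross exon junctions come from spliced RNA, and reads of a gene outside its exons include unspliced RNA. Junction reads gave Plcg2 a ratio of 1.8 (1.73 to 1.86), Blnk 0.737 (0.692 to 0.784), Bank1 0.639 (0.458 to 0.885) and Dok3 0.597 (0.507 to 0.702). These lie close to the ratios on all exon reads, as do those of Ptpn6 at 1.15 (1.12 to 1.18), Syk at 1.06 (0.973 to 1.17) and Btk at 0.985 (0.937 to 1.04). The junction ratio of Cd22 was 1.88 (1.19 to 3.02), from 56 reads in Klf2 and 31 in BFP, with an interval that holds the exon ratio. That of Cd72 was 1.43 (1.25 to 1.64), and its interval holds the Cd72 exon ratio of 1.33 as well.

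Outside exons, the members parted from one another in a different way. Plcg2 had 3106 such reads in Klf2 and 1359 in BFP, a ratio of 2.38 (2.23 to 2.54), which is above its exon ratio. Blnk, Bank1 and Dok3 were below 1 on these reads too, at 0.692 (0.641 to 0.747), 0.695 (0.574 to 0.839) and 0.748 (0.688 to 0.812). Ptpn6 and Cd72 took the other direction from their exon reads: Ptpn6 had 732 reads in Klf2 and 1059 in BFP, a ratio of 0.719 (0.654 to 0.791), and Cd72 had 351 in Klf2 and 441 in BFP, a ratio of 0.828 (0.718 to 0.955). The kinases, level on exon reads, parted on these reads, with Syk at 1.21 (1.10 to 1.34) and Btk at 0.699 (0.647 to 0.755). Cd22 had 32 reads in Klf2 and 38 in BFP, a ratio of 0.876 whose interval, 0.530 to 1.44, includes 1. Over 9843 genes with at least 20 such reads the median ratio was 0.991. The ratio outside exons over the ratio in exons had quartiles of 0.800 and 1.2 over those genes. Whether these reads come from introns of the member or from overlapping transcripts was not tested. In the GENCODE annotation, antisense genes overlap Ptpn6, Bank1 and Cd22, a pseudogene overlaps Btk and a miRNA gene overlaps Plcg2. Syk, Blnk and Dok3 overlap no other gene. The antisense gene at Ptpn6 had 3 exon reads in Klf2 and 1 in BFP, and the pseudogene at Btk had 0 in both. The antisense genes at Bank1 and Cd22 and the miRNA gene matched no row.

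**Figure D3:**
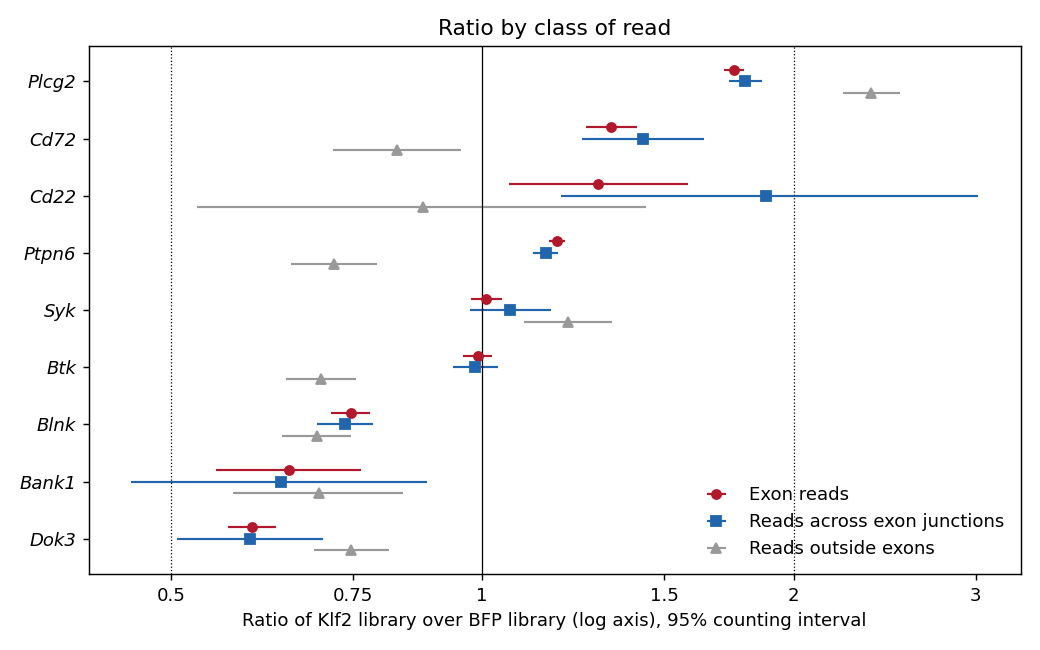
Ratio of Klf2 over BFP (log axis) with exact 95% intervals for each member on all exon reads, junction reads and reads outside exons. The ratios of the 3 kinds of read lie on the same side of 1 for Plcg2, Blnk, Bank1, Dok3, Syk and Btk. For Syk and Btk the intervals on exon and junction reads include 1. The ratios lie on both sides for Ptpn6, Cd72 and Cd22, and the Cd22 interval outside exons includes 1.

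Close relatives of the members, chosen after values were seen, are given beside them. Zap70, the T-cell counterpart of Syk, had 162 reads in Klf2 and 109 in BFP, and by level per length it was at 2.05 RPKM in Klf2 and 1.41 RPKM in BFP, below Syk in both libraries. Tec, of the same kinase family as Btk, was at 15.3 CPM in Klf2 and 30.3 CPM in BFP, a ratio of 0.504 (0.450 to 0.565), where Btk was at 0.990. Plcg1, the broadly expressed isoform, was at 1.70 (1.59 to 1.82), close to Plcg2 at 1.75. Plcg1 is uncertain, since 29.3% of its reads in Klf2 and 31.2% in BFP were uniquely placed, though those reads gave 1.60 (1.42 to 1.81). Pik3ap1, a scaffold of the same family as Bank1 that recruits PI3-kinase, was at 283 CPM in Klf2 and 169.6 CPM in BFP, a ratio of 1.67 (1.61 to 1.73), where Bank1 was at 0.650. The Klf2 library held 0.0293 Bank1 reads for each Pik3ap1 read and the BFP library 0.0753. Siglecg, an inhibitory lectin related to Cd22, was at 0.767 (0.710 to 0.828), and Ptpn11, the second SHP phosphatase, at 1.33 (1.28 to 1.38). Of 2 other Dok adaptors, Dok1 was at 0.95 (0.870 to 1.04), and Dok2 at 1.82 (1.29 to 2.58) from 96 reads in Klf2 and 55 in BFP. Of these 3 Dok adaptors, Dok3 had the lowest ratio. Other Dok genes were not examined.

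**Figure D4:**
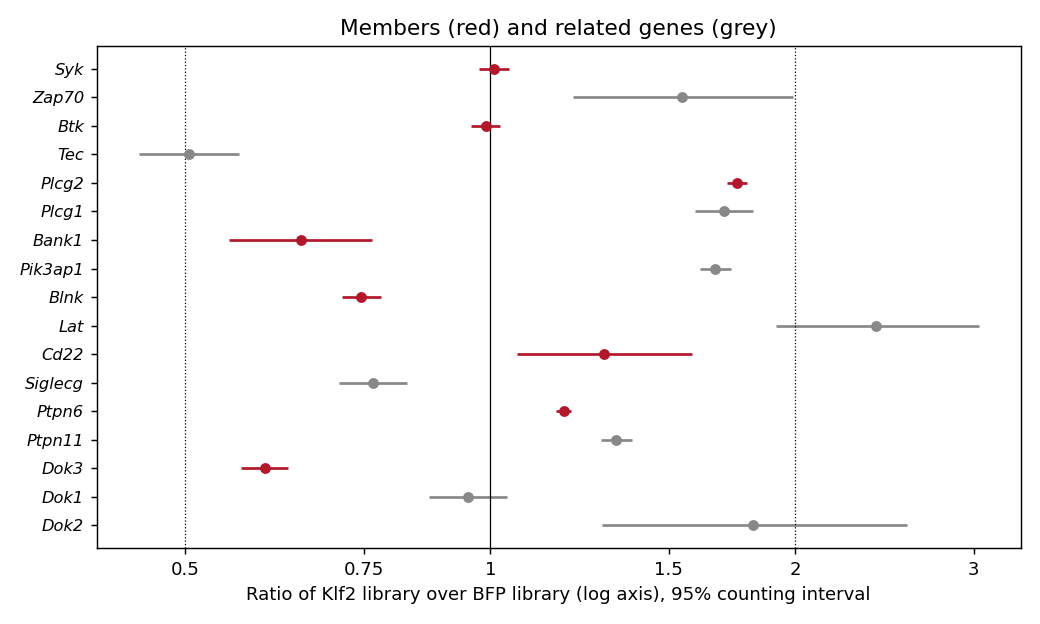
Ratio of Klf2 over BFP (log axis) with exact 95% intervals for members beside related genes. Plcg2 and Plcg1 lie together at 1.75 and 1.70, while Bank1 at 0.650 and Pik3ap1 at 1.67 lie apart.

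The other genes of the pathway were counted from lists of 75 genes, of which 74 matched a row and 65 reached 1 CPM. Of the 65, 4 rose and 2 fell by the 2-fold rule, 59 did not pass, beside 8.12% of all genes tested that passed in either direction, and the median log2 ratio was -0.02. None of 8 receptor and co-receptor genes passed. The genes of that list with the largest ratios were the surrogate light chain genes Vpreb1, at 727 CPM in Klf2 and 488 CPM in BFP, a ratio of 1.49 (1.46 to 1.52), and Igll1, at 1.43 (1.40 to 1.46). Of 21 proximal kinases and adaptors, Blk rose and Fyn fell, both Src-family kinases that act upstream of Syk. Blk had 821 reads in Klf2 and 171 in BFP, a ratio of 5.0 (4.23 to 5.93). Fyn had 3733 in Klf2 and 10676 in BFP, a ratio of 0.364 (0.350 to 0.378). Of the Fyn reads, 61.0% in Klf2 and 59.2% in BFP were uniquely placed, and those gave 0.376 (0.358 to 0.395). Of 16 downstream genes, Prkcb, the protein kinase C that answers the lipid messenger made by Plcg2, rose at 2.37 (1.88 to 3.02). Rasgrp3, a Ras activator that binds the same messenger, fell at 0.184 (0.144 to 0.232). Of 20 inhibitory genes 2 rose. Ptpn22, a phosphatase that acts on Src-family kinases, was at 19.9 CPM in Klf2 and 5.08 CPM in BFP, a ratio of 3.92 (3.28 to 4.70). Fcrl1, an Fc receptor-like protein of B cells, was at 4.46 (1.92 to 12) from 30 reads in Klf2 and 7 in BFP. Fcrl1 lies on the floor of 1 CPM and Tec just inside the 2-fold limit: with total-read scaling, as with the deposited RPKM, Fcrl1 was below the floor and Tec passed as lower, so that 3 pathway genes were higher and 3 lower.

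**Figure D5:**
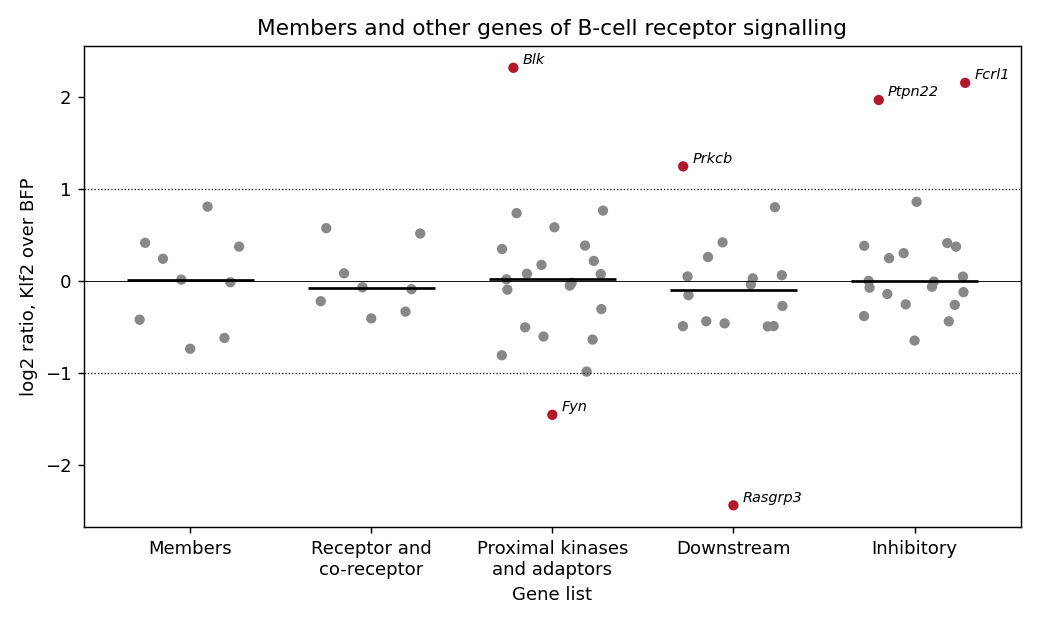
Log2 ratio of Klf2 over BFP for each tested gene of the 4 pathway lists and the 9 members, with lines at the 2-fold limit. The members lie between -0.74 and 0.81, and 6 of the 65 list genes lie past the limit.

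The labelled cell type was checked on marker lists, and several members are also made by myeloid cells. B-lineage genes were high in both libraries, with Cd79a at 903 CPM in Klf2 and 962 CPM in BFP, and Pax5 at 161 CPM in Klf2 and 185 CPM in BFP. Rag1, Rag2 and Dntt, on the same list of B-progenitor markers, had at most 9 reads in a library and were below 1 CPM. These genes thus did not bear out the label of pro-B cells. No tested gene of the 12 matched B-progenitor markers passed the rule. Of 17 matched myeloid markers, 5 reached 1 CPM, and their list summed to 11.5 CPM in Klf2 and 19.7 CPM in BFP. In that list Fcgr1, at 24 reads in Klf2 and 166 in BFP, and Tyrobp, at 21 in Klf2 and 112 in BFP, fell. Mrc1, at 125 in Klf2 and 54 in BFP, rose. Cebpe, S100a8, S100a9 and Ly6g had no read in either library, and Mpo had 0 in Klf2 and 3 in BFP. The part of myeloid RNA in the levels of Dok3 and the other members was not tested. T-cell markers summed to 75.3 CPM in Klf2 and 113 CPM in BFP, most of it Cd28. Lat, a T-cell adaptor, rose at 8.50 CPM in Klf2 and 3.54 CPM in BFP. Cd3e, Cd4, Cd8a, Cd8b1, Themis and Trat1 had no read in either library. Erythroid and megakaryocyte markers summed to 2.51 CPM in Klf2 and 3.15 CPM in BFP.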

How the data were processed

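Poly(A) RNA was sequenced on an Illumina HiSeq system, per the labels' protocols, which name 2 library kits and do not assign them to libraries. The submitters' processing notes name CASAVA 1.8.2 and mm10, with no role. The aligner, counting program, annotation and strand setting were not given in the sources used here. Per the file headers, the authors deposited, for each lane, counts of gene reads, junction reads, exon reads and the uniquely placed part of the exon reads, beside RPKM and median coverage per gene, and their deposited fold is a signed score, the ratio of mean RPKM. The deposited RPKM equals exon reads per exon length and per total gene reads of a lane, checked by recomputing (largest difference 0.0258).

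By title, the 4 samples of each group are lanes. Per degree of freedom, the chi-square of lane counts was 1.04 in Klf2 and 1.03 in BFP on uniquely placed reads, and 1.28 in Klf2 and 1.30 in BFP on all exon reads, so lanes were summed and counted as 1 sample. Lanes held 7682298 to 7741626 exon reads in Klf2 and 7506567 to 7588695 in BFP, and 83.3% of exon reads in Klf2 and 83.2% in BFP were uniquely placed. Before TMM scaling, a count of 0 allows 0.0973 CPM in Klf2 and 0.0996 CPM in BFP (3 reads), which covers counting error only, since reads carry no molecular identifiers.

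CPM used TMM factors taken over the whole table, 0.969 for Klf2 and 1.03 for BFP (edgeR 4.0.16, R 4.3.3). Intervals are exact (Clopper-Pearson), conditional on the summed reads, in scipy 1.17.1. No test between groups was possible with 1 library each. Reads outside exons are gene reads minus exon reads, scaled with the factors of exon reads. Alternatives were other scalings (DESeq2 1.42.0 size factors, total reads, genes of like level), other reads, other floors and folds, and leaving out each lane. The scaling on genes of like level and the use of junction reads and reads outside exons were added after seeing the data. Promoter windows are RefSeq's, and overlapping genes are those of GENCODE M21.

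The members and all lists were chosen with earlier results of these data known. The text names all members, Klf2, list genes past the rule (up to 6 in each direction), the 2 genes of a list with the largest ratios where fewer than 2 passed, and up to 4 marker genes past the rule. Relatives, read ratios between genes and other named markers were chosen after values were seen. Of the pathway genes 1 did not match a row, and of the marker genes 3 did not.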

Additional observations from a re-analysis of the deposited data

Results flagged for a closer look

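The lowest BFP lane of Blnk stood apart from the others, at 151 CPM where the other 3 lanes lay between 152.9 and 153.1 CPM. The gap was large only beside a very narrow spread, and Blnk read counts were 1186, 1187, 1187 and 1183 in the 4 BFP lanes. Among 18 groups of lanes examined this was 1, and chance gives about 1 in 20.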

How the results depend on the processing

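No member passed the 2-fold rule in either direction under any alternative on exon or gene reads that kept a 2-fold limit, while Plcg2 was at 2.38 on reads outside exons. At 1.5-fold, 1 of 9 members was higher and 2 were lower. Of 65 pathway genes tested, 8 were higher and 7 lower at that limit. Over all genes tested the shares were 10.2% higher and 13.9% lower. With a floor of 10 CPM, 59 pathway genes were tested, of which 2 were higher and 2 lower. Prkcb and Fcrl1, which lie under that floor, were not tested. All genes past the rule numbered 398 of 8509 tested with that floor (121 higher and 277 lower). They numbered 2617 of 10850 at 1.5-fold, against 881 of 10850 with the rule as set. The median ratio of the members, 1.01, became 0.948 with total-read scaling, 0.949 with the deposited RPKM, 0.899 with scaling on genes of like level, 1.05 on all gene reads, 1.06 on junction reads and 0.748 on reads outside exons. On reads outside exons the ratio lay on the other side of 1 for Cd22 (0.876), Cd72 (0.828) and Ptpn6 (0.719), and the cause was not tested. Leaving out each lane in turn gave 1.74 to 1.76 for Plcg2 and 0.586 to 0.609 for Dok3. It gave 0.737 to 0.751 for Blnk and 1.24 to 1.33 for Cd22. It left 3 to 4 pathway genes higher and 2 to 3 lower, of 64 to 65 tested. With total-read scaling the ratios were 1.65 for Plcg2, 0.563 for Dok3, 0.701 for Blnk and 1.22 for Cd22. With scaling on genes of like level they were 1.56 for Plcg2, 0.576 for Dok3, 0.665 for Blnk and 1.49 for Cd22. No paired analysis was possible because the lane numbers are lanes of 1 library per group. Depth limits Cd22 and Bank1, with 184 to 397 reads per library, and with 1 library per group a difference in culture, infection, kit or preparation cannot be told apart from that in construct.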

Other observations

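The exon reads of Klf2 and its reads outside exons took different directions. Exon reads numbered 3364 in the Klf2 library and 314 in the BFP library, and junction reads 694 in Klf2 and 23 in BFP. Reads of the gene outside its exons numbered 17 in Klf2 and 35 in BFP, a ratio of 0.505 (0.266 to 0.927). They made up 0.503% of Klf2 gene reads in the Klf2 library and 10.03% in the BFP library. Over all genes, reads outside exons were 15.1% of gene reads in Klf2 and 15.2% in BFP. Among the members that share was 13.6% in Klf2 and 10.4% in BFP for Plcg2, and 31.6% in Klf2 and 27.0% in BFP for Dok3. It was 13.9% in Klf2 and 18.6% in BFP for Btk, and 43.0% in Klf2 and 41.4% in BFP for Bank1.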
